A study of Mus musculus with 73 samples.

Results

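Enterocytes of the villus tip were recognised among single sorted cells of the mouse jejunum by their mRNA for *Ada*, *Nt5e* and *Slc28a2*. *Ada* encodes adenosine deaminase, *Nt5e* encodes the ectoenzyme CD73 that releases adenosine from AMP, and *Slc28a2* encodes a sodium-coupled purine nucleoside carrier. A well was taken as an epithelial cell when it held 400 to 8000 unique molecular identifiers (UMIs, each counted as 1 mRNA molecule), at least 250 genes, at least 1 UMI of *Epcam*, *Krt8* or *Vil1* and 0 UMIs of *Ptprc*, *Dcn* and *Pdgfra*. Of 12346 wells on 35 plates, 2347 passed the depth limits and 1711 were epithelial cells. A villus tip enterocyte was an epithelial cell with 3 or more UMIs of the 3 genes together. The cells were thus chosen by these measured UMI counts, and 274 met the rule (16.0% of the epithelial cells, exact binomial 95% interval 14.3% to 17.8%). A further 115 cells held 1 or 2 such UMIs and 1322 held 0.

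Enterocytes are born in the crypts, move up the villus over a few days and are shed from its tip. On the way they pass from an antimicrobial programme at the villus bottom, through the absorption of sugars and amino acids, to the handling of lipids and purine nucleotides at the tip. Enzymes on the tip surface break extracellular ATP down to adenosine and inosine, which enterocytes take up, and stromal telocytes underneath signal to these cells.

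The study profiled the jejunal stroma of C57BL/6 male mice aged 3 months by laser capture microdissection (LCM) and by sorting single cells of 8 mice in 11 gates into plates, and asked what the *Lgr5*-positive telocytes of the villus tip do to the epithelium above them. Most sorting gates were drawn for PDGFRa-positive stroma. The epithelial cells came from these gates, from gates labelled as doublets with PDGFRa, from the gate labelled CD45Singlets and from 1 plate sorted by EPCAM, and 1 gate (Nt5ePdgfraDoublets) was sorted on the protein of a gene that defines the tip cells. In the third experiment the jejunal epithelium of Lgr5(GFP-ires-DTR/+) mice aged 4 months was sequenced in bulk 48 h after an intraperitoneal injection of diphtheria toxin (DT, 4 samples) or of the saline vehicle (mock, 4 samples). The DT receptor stands under the *Lgr5* promoter in these mice, so that DT kills *Lgr5*-positive crypt stem cells as well as the telocytes, and the mock mice carry the same allele.

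The tip cells came from 19 plates and 6 mice, and mouse A alone gave 142 of them. Mouse G gave 90, mouse H 28, mouse E 7, mouse F 4 and mouse C 3, while mice B and D gave 0 of 128 and 0 of 15 epithelial cells, which allows shares of up to 2.34% and 20% by a floor of 3 counts. The share of epithelial cells that were tip cells was 25.0% in mouse A, 22.7% in mouse G, 16.8% in mouse H, 11.3% in mouse E, 2.54% in mouse C and 1.56% in mouse F. The mice were not all sorted in the same gates, so that the mouse and its gates cannot be told apart in these shares. After each cell was thinned to 400 UMIs the overall share was 9.88%, since a shallower cell reaches 3 UMIs less often.

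Among the gates with more than 50 epithelial cells, the largest share lay in the gate labelled CD45Singlets, where 55 of 68 epithelial cells were tip cells (80.9%). That label names leukocytes, and *Cd3e*, *Cd3g* and *Cd7* had 0 UMIs in these 55 cells, *Gzma* 4 UMIs, while *Apoa4*, a lipoprotein of enterocytes, stood at 502 UMIs per 10000. The rule had already left out every well with a UMI of *Ptprc*, which encodes CD45. These counts therefore describe the cells kept and cannot show what the gate sorted. *Tff3*, a goblet cell gene, had 114 UMIs in 8 of the 55 cells. In the EpcamSinglets gate 23 of 56 cells were tip cells (41.1%), in EpcamPdgfraDoublets 107 of 466 (23.0%), in Nt5ePdgfraDoublets 19 of 96 (19.8%), in PdgfraSinglets 58 of 575 (10.1%) and in PdgfraSingletsPop3 4 of 358 (1.12%). The shares of a gate describe the sort and not the tissue. The 274 wells used 203 different well barcodes, 59 of them on 2 or more plates, because every plate carried the same set of barcodes.

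*Ada* carried the rule. It had a UMI in 273 of the 274 cells, with a median of 10 and up to 191 UMIs per cell. *Slc28a2* had a UMI in 196 cells (median 2, up to 31) and *Nt5e* in 64 cells (up to 16). *Ada* and *Slc28a2* without *Nt5e* were seen in 137 cells, *Ada* alone in 72, all 3 genes in 58, *Ada* with *Nt5e* in 6 and *Slc28a2* alone in 1. At the edge of the rule, the 30 cells with 2 UMIs were left out and the 20 cells with 3 UMIs, at 9.98 UMIs of the 3 genes per 10000, were the lowest taken in. The 21 cells with 4 UMIs stood at 20.2 per 10000.

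Wells of other cell types gave the background of these genes. Of 302 wells with *Dcn* or *Pdgfra* and no epithelial gene, 3 held a UMI of the 3 genes (0.993%) and 0 held 3 or more, at a median depth of 1024.5 UMIs. Of 33 wells with *Ptprc* and no epithelial gene, 4 held a UMI (12.1%) and 0 held 3 or more, at a median of 910 UMIs. The epithelial cells held at least 1 UMI in 22.7% of cells at a median of 1653 UMIs. The interval of the *Ptprc* wells (3.40% to 28.2%) holds that share, while 16.0% of epithelial cells held 3 or more. In total 47 wells with an epithelial gene were left out for *Ptprc*, *Dcn* or *Pdgfra*, and 4 of these held 3 or more UMIs of the rule's genes.

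For the comparison with other epithelial cells, each tip cell was paired with a cell of the same mouse that held 0 UMIs of the 3 genes (zero cells below) and nearly the same total UMIs. Mice A, E, G and H had at least 5 pairs (142, 7, 90 and 22 pairs), and the UMIs of 261 tip and 261 zero cells were summed by mouse to 532560 and 529437 UMIs. Both cells came from the same gate in 75, 1, 36 and 12 of these pairs. Gate and class are thus partly mixed in the comparison of genes. The 3 rule genes are 0 in the zero cells by construction and are given as a description. In the tip cells of mice A, E, G and H *Ada* reached 64.7, 59.7, 109 and 114 UMIs per 10000, *Slc28a2* 15.8, 14.6, 20.03 and 26.6, and *Nt5e* 3.37, 3.82, 2.64 and 4.43. Levels of different genes count 3′ ends and carry no length term. The gene for adenosine deaminase lies at chr2:163726584-163750239 on the minus strand of GRCm38, *Nt5e* at chr9:88327197-88372092 and *Slc28a2* at chr2:122426477-122461137, both on the plus strand.

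The tip cells carried the markers of enterocytes. A UMI of 8 general enterocyte markers (*Alpi*, *Fabp1*, *Fabp2*, *Apoa1*, *Apoa4*, *Sis*, *Anpep*, *Rbp2*) was found in all 261 paired tip cells. It was also found in 256 of the 261 paired zero cells, so that its presence hardly separates the classes. The summed level of these markers lay between 783 and 819.6 UMIs per 10000 across the 4 mice, against 330.4 to 729 in the zero cells. Of the 42275 tip and 24305 zero UMIs, *Apoa4* gave 20477 and 3463, and *Apoa1* 13089 and 6421. *Alpi* was higher too, but *Sis* and *Fabp1* were lower and *Fabp2* had 4067 UMIs against 6587. The sum thus rests on the apolipoproteins and not on all markers. Markers of other types were sparse. The crypt genes *Olfm4*, *Mki67* and *Top2a* had 0 UMIs in tip cells and *Lgr5* 5 in 5 cells, and the 4 T cell markers had 12 UMIs in 7 cells with *Cd3e* and *Cd3g* at 0. The plasma cell markers had 0 UMIs, the 4 mesenchymal markers 4, the endothelial markers 3, the Paneth markers 20 in 12 cells and the tuft markers 12 in 10 cells. The 4 goblet markers had UMIs in 29 tip and 25 zero cells but 168 against 1343 UMIs, so that a few goblet cells may have stood among the zero cells. Tip cells held goblet RNA too. Over all tip cells, *Tff3* had 160 UMIs in 7 of the 107 cells of EpcamPdgfraDoublets and 114 in 8 of the 55 of CD45Singlets. No doublet caller was run, and position on the villus was not measured in the sorted cells.

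Of 5260 genes tested across the 4 mice, 318 were higher in tip cells (6.05%) and 425 lower (8.08%) at an adjusted p under 0.05 in edgeR's quasi-likelihood test with the mouse as a block and Benjamini-Hochberg adjustment. The median log2 difference was −0.06 over all genes, 2.07 over the higher and −2.34 over the lower ones. In all 4 mice alike, 212 of the higher and 308 of the lower genes differed in the called direction. Every tip value lay above every zero value in 128 of the higher genes (3.25% of all genes tested did so), and under every zero value in 266 of the lower ones (10.5%). The split depended on the scaling. With total UMIs in place of the trimmed mean (TMM) factors the median over all genes was −0.40, and 199 genes were higher and 658 lower (23.2% of the called genes higher, against 42.8%). Without mouse A, 81 genes were higher and 44 lower, and without mouse G 95 and 166. Without the gates labelled as doublets the counts were 119 and 158, and without the CD45 gate 258 and 316.

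The genes that the study named for the tip epithelium, largely from an earlier map of enterocyte zonation, rose together, 5 of the 5 tested. The list was written with earlier results of these data known, so that it is not independent evidence. *Klf4*, a transcription factor of postmitotic epithelium, stood at 11.4, 6.25, 5.95 and 5.23 UMIs per 10000 in the tip cells of mice A, E, G and H and at 3.33, 2.11, 1.74 and 0.402 in their zero cells. Every tip value lay above every zero value (log2 difference 2.31 ± 0.37 SE, adjusted p = 5.78e-08). *Creb3l3*, a membrane-bound transcription factor of lipid metabolism in liver and gut, stood at 9.53, 10.8, 13.1 and 9.06 in tip cells against 2.38, 4.21, 2.87 and 4.02, again without overlap (2.04 ± 0.33, adjusted p = 9.85e-08). *Fos* and *Jun* encode the partners of the AP-1 factor. *Fos* stood at 7.07, 2.43, 5.22 and 2.82 against 1.83, 1.76, 3.20 and 0.604, higher within each of the 4 mice although the groups overlapped (1.67 ± 0.40, adjusted p = 0.000576). *Jun* stood at 4.64, 0.695, 3.76 and 1.01 against 0.695, 0.702, 0.562 and 0.805, higher in 3 of 4 mice (2.49 ± 0.50, adjusted p = 3.44e-05).

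*Cdh1*, which encodes E-cadherin of the adherens junction, was the weakest of the 5. Its levels were 2.32, 5.90, 2.69 and 2.01 in tip cells against 1.28, 2.46, 1.35 and 1.61 (1.2 ± 0.41, adjusted p = 0.0272), and the adjusted p was 0.160 with total UMIs as the scale. *Egfr*, the receptor of the epidermal growth factor, was too rare for the test, with 17 UMIs in tip cells and 1 in zero cells (ratio 16.9, 95% counting interval 2.65 to 706). *Cdh1* lost its call also without mouse A, without mouse G, without the doublet gates, without the CD45 gate and without cells with crypt or secretory markers. The calls of *Fos* and *Jun* were lost without mouse A, and that of *Jun* without mouse G and without the doublet gates, while *Klf4* and *Creb3l3* kept theirs under all 18 alternatives.

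The largest differences among genes that moved the same way in every mouse were near-absences in the zero cells. A gene with 0 UMIs in 1 class (6 of the higher and 13 of the lower genes) reached the test only through the other class, so its counts are given as a description and no p is printed for it. The nucleoside carrier *Gm14085* (RefSeq *Slc28a2b*) had 499 UMIs in tip cells and 0 in zero cells, at least 165-fold higher, with levels of 7.25, 7.29, 10.8 and 17.1 per 10000 in mice A, E, G and H. It lies at chr2:122484941-122528040, close to *Slc28a2* on the same strand, and 35.4% of the 50-base windows of the *Slc28a2* transcripts also occur in it. Reads of the pair may therefore have been exchanged, and *Gm14085* is uncertain as evidence beyond the rule. It had a UMI in 113 of the 137 cells with *Ada* and *Slc28a2*, in 52 of the 58 with all 3 genes and in 2 of the 72 with *Ada* alone.

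*2010109I03Rik* (RefSeq *Ly6m*), a member of the Ly6 family at chr15:74876987-74897021, shares no role in the rule. It had 21, 14.9, 9.99 and 13.9 UMIs per 10000 in tip cells against 0.0732, 0, 0.0562 and 0, or 869 UMIs against 3 (ratio 288, 95% counting interval 98.2 to 1399). *Clca4a*, a calcium-activated chloride channel regulator of the brush border (chr3:144952480-144975045), stood at 31.4, 49.0, 19.5 and 18.1 against 1.35, 1.05, 0.506 and 0.201 (log2 difference 5.45 ± 0.40, adjusted p = 9.66e-40). Its neighbour *Clca4c-ps* was also higher (5.19 ± 0.42) but 23.6% of the windows of *Clca4a* occur in it, so that these counts are not separate. *2010107G12Rik* (RefSeq *Slc23a4*), of the family that carries ascorbate and nucleobases, stood at 6.02, 3.82, 8.58 and 5.84 against 0.220, 0, 0.0562 and 0.201 (5.78 ± 0.53). With 359 UMIs against 8 it had the 20 UMIs of a tested gene only through the tip cells, so its values are a description. In each of these genes the lowest tip value lay far above the highest zero value.

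*Gprc5a*, an orphan receptor of epithelia, had 118 UMIs against 1 (ratio 117, 95% counting interval 20.6 to 4672). *Nsmf* had 26 UMIs against 0 (at least 8.62-fold higher) and *Clec2d*, a C-type lectin, 22 against 0 (at least 7.29-fold). *Cldn4*, a claudin of the tight junction at chr5:134945119-134946934, had 0.761, 0.347, 0.785 and 0.805 UMIs per 10000 in tip cells and 0 in the zero cells of every mouse (40 UMIs against 0, at least 13.3-fold higher). Its promoter (RefSeq, GRCm38.p6, from 250 bases before to 50 after the start, minus strand) is shown because it holds 2 matches to the AP-1 motif TGANTCA, the motif bound by the products of *Fos* and *Jun*. The matches stand in capitals, at chr5:134947156-134947184 and chr5:134947075-134947103.

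Cldn4, 240 bases before the start: tctaggctggTGACTCAgtgtctgtgtcc

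Cldn4, 158 bases before the start: atactggcgggTGACTCAggggcccagga

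On either strand the motif occurs in 8.97% of the 27025 promoters of that length. Among other named genes, a promoter of *Creb3l3* also held a match. Those of *Ada*, *Nt5e*, *Slc28a2*, *Gm14085*, *2010107G12Rik*, *Clec2d*, *Klf4*, *Fos*, *Jun* and *Egfr* held none. Promoters were found for 231 of the 318 higher and 190 of the 425 lower genes, less than 80% of each, so that a comparison of motif shares is void. Whether AP-1 binds at *Cldn4* was not measured.

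**Figure D1:**
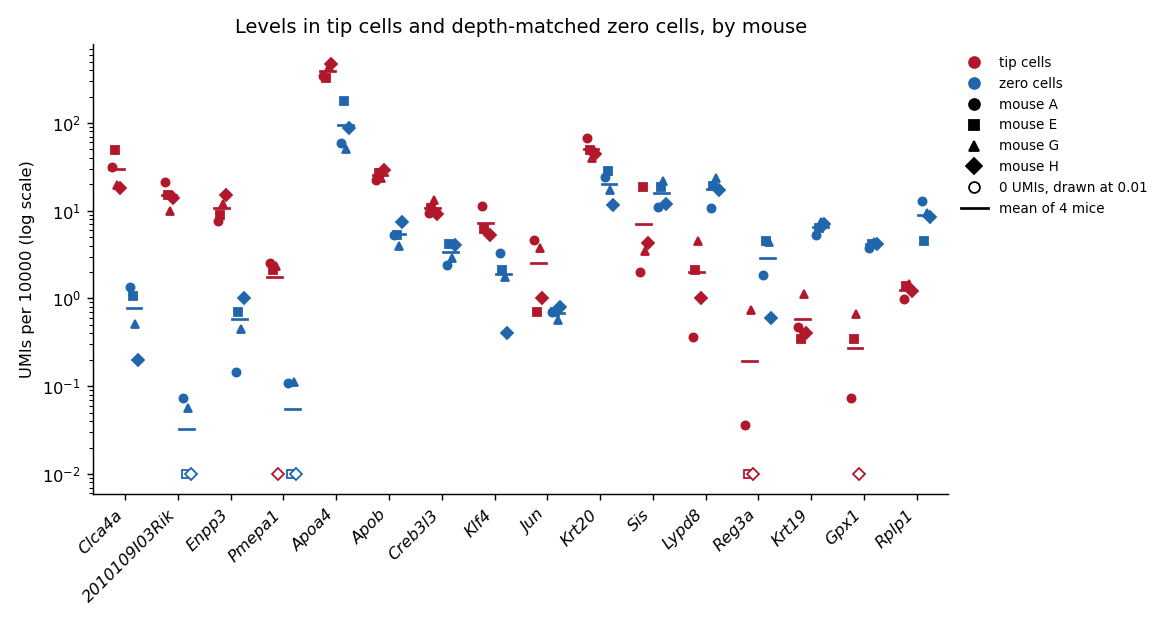
Levels of 16 genes, in UMIs per 10000 on a log scale, in tip cells (red) and depth-matched zero cells (blue) of mice A, E, G and H, with 1 marker per mouse, a line at the mean and values of 0 UMIs drawn open at 0.01. *Klf4*, *Creb3l3* and *Clca4a* were higher in tip cells of every mouse, and *Lypd8*, *Gpx1* and *Krt19* lower.

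Purine handling, the function of the rule's genes, was followed in 12 further genes, of which 4 were higher and 0 lower (3 higher with total UMIs as the scale). *Enpp3*, an ectonucleotidase that cleaves extracellular ATP, stood at 7.65, 9.03, 11.9 and 14.9 UMIs per 10000 against 0.146, 0.702, 0.450 and 1.01 (4.94 ± 0.42, adjusted p = 7.41e-29). *Entpd8*, which removes phosphates from ATP and ADP, stood at 1.78, 1.04, 3.81 and 4.83 against 0.439, 0.702, 0.618 and 0.604 (2.61 ± 0.49). *Alpi*, the intestinal alkaline phosphatase, stood at 15.9, 17.0, 28.2 and 25.0 against 5.45, 9.83, 6.63 and 15.9 (1.6 ± 0.32). *Enpp3* and *Entpd8* did not overlap between the classes, whereas the lowest tip value and the highest zero value of *Alpi* were both 15.9. *Xdh*, which makes urate from hypoxanthine, was higher by 1.22 ± 0.33, a call lost without mouse A, without mouse G or with total UMIs as the scale. Guanine deaminase (*Gda*, 0.40, adjusted p = 0.436) and purine nucleoside phosphorylase (*Pnp*, 0.35, adjusted p = 0.555) did not pass. Of the 4 genes called, 3 encode enzymes of the cell surface.

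Immediate early and Klf genes rose in 10 of 16 tested, with 0 lower and a median log2 difference of 1.64 (8 of 16 with total UMIs as the scale). *Atf3*, a stress-induced repressor, stood at 1.38, 2.08, 1.29 and 0.805 against 0.146, 0, 0 and 0 (4.48 ± 0.80). *Klf6* was higher by 2.18 ± 0.42. Without mouse A 3 of 14 genes of the list were called, without mouse G 5 of 15 and without the doublet gates 4 of 15. These genes can be induced during dissociation of tissue, and the part of handling was not tested. The heat shock and dissociation list did not move one way, with 1 of 7 higher (*Dnajb1*, 2.44) and 2 lower (*Hspe1* and *Hspd1*, mitochondrial chaperonins).

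Genes of lipid absorption rose in 10 of 23 tested and fell in 1, with a median of 0.50. *Apob*, the scaffold of chylomicrons, stood at 22.3, 26.7, 23.5 and 28.8 UMIs per 10000 in tip cells against 5.31, 5.27, 3.93 and 7.44 (2.53 ± 0.32). *Apoa4*, secreted on chylomicrons, stood at 345, 323, 434 and 464 against 59.7, 178, 50.2 and 86.9 (2.54 ± 0.41, adjusted p = 1.05e-07). Both apolipoproteins were separated between the classes in all 4 mice, and *Apoc3* was higher by 1.71 ± 0.32. The cytoplasmic fatty acid carriers did not follow, since *Fabp1* was the member that fell and *Fabp2* had a difference of −0.45 (adjusted p = 0.45). With total UMIs as the scale 7 were higher and 2 lower, without mouse A 4 and 0 of 23, without mouse G 5 and 0 of 22 and without the doublet gates 6 and 1 of 23.

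Sugar handling gave 0 higher and 3 lower of 12. *Sis*, the sucrase-isomaltase of the brush border, stood at 1.99, 18.4, 3.48 and 4.23 UMIs per 10000 in tip cells against 11.1, 18.6, 21.6 and 12.1 in zero cells (−1.41 ± 0.32). Mouse E, with 7 tip cells, lay at the level of its zero cells and the other mice well under theirs. *Tkfc* and *Fbp2*, of fructose metabolism, fell by 1.17 and 1.10 on the log2 scale, and 0 of the list were called without mouse A or without mouse G. Of 15 genes for peptide digestion and amino acid transport, *Slc6a19* (1.24) was higher and *Enpep* was lower (−1.21). Such counts lie near the shares of all genes tested (6.05% higher and 8.08% lower). The higher call was lost with total UMIs as the scale.

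The antimicrobial genes of the villus bottom fell in 8 of 12 tested, with 0 higher and a median of −1.63 (9 lower with total UMIs as the scale, and 6 without mouse A or without mouse G). *Lypd8*, a secreted protein that keeps flagellated bacteria from the epithelium, stood at 0.363, 2.08, 4.54 and 1.01 UMIs per 10000 in tip cells against 10.9, 19.0, 23.9 and 17.1 (−3.20 ± 0.36, adjusted p = 1.98e-16). The lowest zero value was more than the highest tip value. The lectins *Reg3a* (−3.31) and *Lgals2* (−2.63) and the glutathione peroxidase *Gpx2* (−2.41) were lower as well. Of 7 stem and cycling genes tested, 0 were called in either direction (median −0.64).

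The BMP and TGF-beta response list had 2 higher of 6, beside 6.05% of all genes tested. The count was 2 of 6 with total UMIs as the scale, 1 of 5 without mouse A and 1 of 6 without mouse G. *Pmepa1*, a feedback inhibitor of TGF-beta signalling, stood at 2.5, 2.08, 2.36 and 0 UMIs per 10000 against 0.11, 0, 0.112 and 0 (4.79 ± 0.75), so that mouse H, with 22 pairs, showed it in neither class. *Skil*, a repressor of SMAD factors, was higher by 2.10 and lost its call without mouse A and without mouse G.

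Genes of adhesion, junctions and keratins rose in 10 of 24 tested and fell in 1, with a median of 1.25. With total UMIs as the scale 6 were higher, without mouse A 2 of 21, without mouse G 3 of 24 and without the doublet gates 4 of 22, with 1 lower in each. *Krt20*, the keratin of mature enterocytes, stood at 67.1, 49.0, 40.3 and 43.9 UMIs per 10000 against 24.3, 28.1, 17.4 and 11.5 (1.65 ± 0.33). *Krt19*, the keratin of younger epithelium, went the other way, at 0.471, 0.347, 1.12 and 0.403 against 5.31, 6.32, 7.47 and 7.04 (−3.0 ± 0.42). The classes did not overlap for either keratin. *Ceacam1*, a membrane glycoprotein of the immunoglobulin family, was higher by 1.66. Of 19 genes of the cytoskeleton and microvilli 8 were higher and 0 lower, among them the actin-binding thymosins *Tmsb4x* (1.88) and *Tmsb10* (1.55), the linker plectin (*Plec*, 1.53) and the protocadherin of the brush border *Cdhr2* (1.15). Total UMIs as the scale left 4 called, as did leaving out the doublet gates, and leaving out mouse A or mouse G left 2.

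Genes against oxidative stress and the metallothioneins fell in 8 of 13 with 0 higher. The count was 10 with total UMIs as the scale, 5 of 11 without mouse A, 4 of 13 without mouse G and 4 of 11 without the doublet gates. *Gpx1*, the common glutathione peroxidase, stood at 0.0725, 0.347, 0.673 and 0 UMIs per 10000 in tip cells against 3.73, 4.21, 4.38 and 4.23 (−3.60 ± 0.52). The glutathione transferases *Gstm3* (−2.36) and *Gsta1* (−2.53) were lower too. In the cell death list 1 of 14 was higher, the survival factor *Mcl1* (1.16), and 1 lower, the inflammatory caspase *Casp1* (−1.61). These counts lie near the shares of all genes tested (6.05% higher and 8.08% lower), and DESeq2 called 0 in either direction.

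The general enterocyte list moved in both directions, with 4 higher and 2 lower of 11 (median −0.05). Besides *Alpi* and the apolipoproteins, *Prap1*, a lipid-binding protein secreted by enterocytes, was higher by 1.30, and the 2 lower members were *Sis* and *Fabp1*. Lists of other lineages had few tested genes. Of 8 goblet genes 2 were lower (*Fcgbp* at −3.05 and *Clca1*). Without mouse A 0 of 4 tested were called, without the doublet gates 0 of 5 and with DESeq2 0 of 8, but without mouse G 4 of 8 were lower. The 1 mesenchymal gene tested was lower (*Sparc*, 1 UMI against 33 UMIs in 4 cells), but rested on mouse G (1.69 UMIs per 10000 in its zero cells against 0.11, 0 and 0 in mice A, E and H) and was called in 5 of 11 alternatives. Of 3 Paneth genes, the lectin *Itln1* was higher (2.67, lost with total UMIs as the scale), and the 1 T cell gene and the 1 myeloid gene tested were not called.

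**Figure D2:**
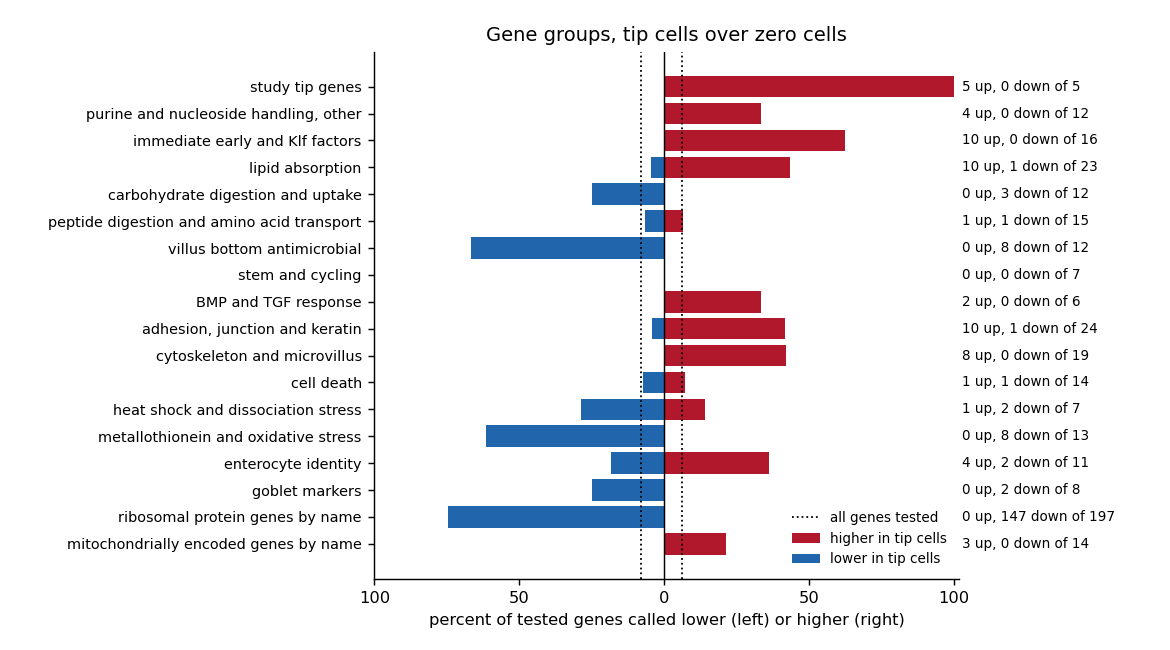
Percent of the tested genes of each list that were called higher (right) or lower (left) in tip cells than in zero cells, with dotted lines at 6.05% and 8.08%, the shares of all 5260 genes. Immediate early genes and adhesion genes lie far to the right and ribosomal protein, oxidative stress and antimicrobial genes far to the left.

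The genes that fell furthest in every mouse were mostly pseudogenes and metabolic genes with few UMIs. *Gm9083* had 0 UMIs in tip cells and 78 in zero cells (at least 26.2-fold lower), and *Gm5121*, *Gm7363*, *Gm11249* and *Gm15710*, named as pseudogenes in the annotation, followed. *Cps1*, the carbamoyl phosphate synthetase of the urea cycle, had 0 UMIs in tip cells against 0.842, 1.40, 0.169 and 0.402 per 10000 in zero cells (32 UMIs, at least 10.7-fold lower). *Maob*, a monoamine oxidase, had 1 UMI against 52 (zero over tip 52.3, 95% counting interval 8.98 to 2105). *Larp4*, *Bcas2* and *Hsd17b10* each had 0 against 20 UMIs (at least 6.71-fold lower), the fewest UMIs a tested gene could have, and lost their calls with no filter on low counts.

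Ribosomal protein genes made up much of the lower group. Of 197 genes with such names tested, 147 were lower and 0 higher, with a median of −2.14 (169 lower with total UMIs as the scale). The names of 108 of them mark pseudogenes, which can share reads with their parent genes and are not separate measurements. Among the other 89, 78 were lower and 0 higher (median −2.01), with 16 of 84 lower without mouse A and 56 of 85 without mouse G. *Rplp1*, of the ribosomal stalk, stood at 0.979, 1.39, 1.46 and 1.21 UMIs per 10000 in tip cells against 13.0, 4.57, 9.50 and 8.45 (−2.60 ± 0.38). Over all names the count was 21 of 158 without mouse A, 81 of 184 without mouse G and 69 of 175 without the doublet gates, with 0 higher in each. As a share of all UMIs, ribosomal protein genes came to 1.08% ± 0.317 (SD, n = 4 mice) in tip cells and 4.60% ± 1.73 in zero cells, lower in 4 of 4 mice.

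The make-up of the tip libraries differed in other ways that bear on every gene above. At equal totals the median number of genes per cell was 533, 1051, 497 and 415 in the tip cells of mice A, E, G and H and 765.5, 1233, 634.5 and 503.5 in zero cells, lower in 4 of 4 mice. *Malat1*, a nuclear non-coding RNA, took 0.624% of tip UMIs and 0.124% of zero UMIs, higher in 4 of 4 mice. For each of these measures the two-sided exact permutation test over the 4 pairs gave p = 0.125, the smallest it can give. Mitochondrially encoded genes took 8.90% against 5.96%, higher in 3 of 4 mice, and 3 of 14 tested genes were called higher (*mt-Rnr1* 1.38, *mt-Rnr2* 1.41, *mt-Co1* 1.05), with 0 called without mouse A or without mouse G. The 10 most abundant genes took 32.0% of tip UMIs against 23.2%, led in both by *Gm42418*, which overlaps a ribosomal RNA repeat. How far these shifts of RNA content account for the gene lists was not tested.

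Several of the calls named above rested on the 2 mice with the most cells. *Jun*, *Cdh1*, *Xdh*, *Sis*, *Tkfc*, *Fbp2*, *Slc6a19*, *Enpep*, *Skil*, *Plec*, *Cdhr2*, *Prap1*, *Dnajb1*, *Mcl1*, *Casp1*, *mt-Co1*, *mt-Rnr1* and *mt-Rnr2* lost theirs without mouse A and also without mouse G. *Fos*, *Itln1*, *Fcgbp*, *Maob*, *Gm7363* and *Gm15710* lost theirs without mouse A, and *Tmsb10*, *Hspe1*, *Hspd1* and *Gm11249* without mouse G. Leaving out mouse E ended the calls of *Enpep* and *mt-Co1*, and leaving out mouse H those of *Enpep*, *Hspd1* and *Tkfc*.

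The levels were also graded by the number of rule UMIs. Over all epithelial cells of the 4 mice, 822 held 0, 105 held 1 or 2, 93 held 3 to 9 and 174 held 10 or more. *Clca4a* stood at 0.646, 3.28, 12.7 and 36.7 UMIs per 10000 in these bands, *Enpp3* at 0.524, 2.70, 5.34 and 12.6, and *Apoa4* at 58.4, 109, 225 and 473. *Krt20* stood at 19.0, 27.5, 49.1 and 58.0. These genes stepped up from band to band.

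*Klf4* did not, at 2.09, 3.93, 8.99 and 8.24, nor did *Fos*, at 2.52, 2.53, 6.79 and 5.03, both of which were level or lower in the top band. Genes of the villus bottom stepped down, *Reg3b* at 125, 95.9, 46.1 and 14.4, *Lypd8* at 17.6, 15.4, 3.00 and 1.37 and *Krt19* at 8.38, 3.76, 0.999 and 0.475. *Rplp1* went from 12.8 to 9.73, 2.55 and 0.671, and *Malat1* from 7.63 to 17.7, 36.6 and 78.0. The bands rest on the rule itself and total UMIs were not matched between them, so that they are a description.

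**Figure D3:**
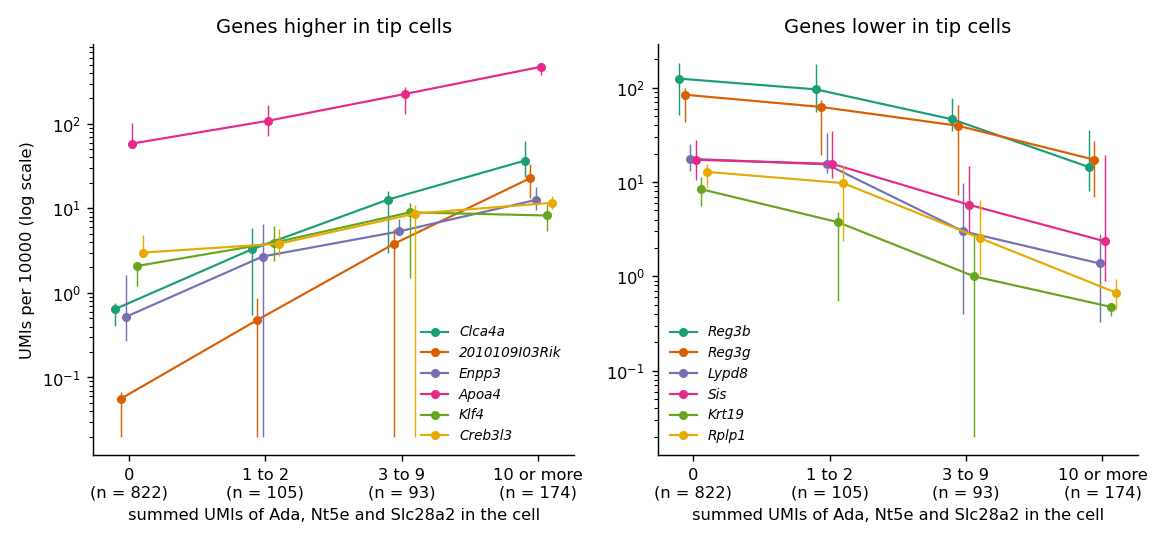
Pooled levels, in UMIs per 10000 on a log scale, of genes higher (left) and lower (right) in tip cells against the band of rule UMIs per cell (0, 1 to 2, 3 to 9, 10 or more, with 822, 105, 93 and 174 cells), with vertical lines from the lowest to the highest mouse and lows drawn no lower than 0.02. *Clca4a* climbs from 0.646 to 36.7 and *Reg3b* drops from 125 to 14.4.

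Among the tip cells themselves, levels differed with the rule genes seen. *Clca4a* was at 58.2 UMIs per 10000 in the 58 cells with all 3 genes, 24.6 in the 137 with *Ada* and *Slc28a2* and 14.3 in the 72 with *Ada* alone. *2010109I03Rik* was at 43.6, 12.1 and 3.86, and *Apoa4* at 593, 360 and 290. *Reg3b* was at 12.4, 16.2 and 49.1 in the same order, whereas *Klf4* was nearly level at 8.77, 7.82 and 9.37. *Lypd8* was at 1.46, 0.873 and 3.92. The median depth of the cells was 1551.5, 1592 and 1922 UMIs in the same order. The splits are made on the rule's own genes and are a description. Between gates, tip cells of the CD45Singlets gate had 16.7 UMIs of *Clca4a* and 5.21 of *Klf4* per 10000, and those of EpcamPdgfraDoublets 32.4 and 10.9. *Enpp3* (15.4 against 7.83), *Gm14085* (12.8 against 8.47) and *Apoa4* (502 against 340) were higher in the former. Of its 55 tip cells, 54 came from 1 plate of mouse G.

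The rule did not use the values of the bulk epithelium. The paper had already reported lower *Ada*, *Nt5e* and *Slc28a2* in these same samples, so that their fall was known and is given as a description. The 8 libraries held 748458 to 4210158 UMIs, and of 8986 genes tested 2 were higher (0.0223%) and 30 lower (0.334%) after DT than after mock treatment, with the batch listed in the study's tables as a term. Without that term 0 were higher and 1 lower. In bulk, fewer cells of a type and less RNA per cell cannot be told apart. *Ada* stood at 5.91, 5.76, 6.16 and 5.68 UMIs per 10000 in mock samples 1 to 4 and at 1.5, 0.875, 2.00 and 1.6 in DT samples 1 to 4. All DT values lay well under all mock values (log2 difference −2.06 ± 0.24 SE, adjusted p = 0.0106, and 0.0624 with the replicate number as a block). *Nt5e* stood at 0.739, 0.494, 1.04 and 0.379 against 0.143, 0.0483, 0.183 and 0.0573, also without overlap (−2.66 ± 0.44, adjusted p = 0.0381, and 0.0113 with the block). *Slc28a2* stood at 1.33, 0.641, 1.14 and 0.944 against 0.253, 0.160, 0.725 and 0.304, where the highest DT value passed the lowest mock value (−1.61 ± 0.37, adjusted p = 0.125).

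Of the 10 genes with the largest rise in tip cells in every mouse, 9 were tested in the epithelium. Of these 9, 4 were called lower after DT, beside 0.334% of all genes tested there. The 9 were picked by their rise in tip cells. Among the 4, *Gm14085*, *2010109I03Rik* and *2010107G12Rik* had enough UMIs for the single-cell test only through those cells. The count of 4 among 9 is therefore a description. *Clca4a* stood at 3.89, 1.75, 6.20 and 2.89 UMIs per 10000 in mock and 1.04, 0.754, 0.945 and 1.03 in DT samples (−1.99 ± 0.29, adjusted p = 0.0288, and 0.0624 with the block). *2010109I03Rik* stood at 2.20, 1.24, 7.78 and 2.24 against 0.565, 0.227, 0.778 and 1.07 (−2.36 ± 0.39, adjusted p = 0.0341, and 0.0732 with the block). Neither gene overlapped between the groups, and the highest mock value of the latter came from 1 library. *2010107G12Rik* stood at 0.947, 0.655, 0.741 and 0.511 against 0.354, 0.232, 0.329 and 0.291 (−1.28 ± 0.22, adjusted p = 0.0341, and 0.0732 with the block). *Gm14085* stood at 0.159, 0.0802, 0.323 and 0.325 against 0.0758, 0.0387, 0.122 and 0.132 (−1.36 ± 0.25, adjusted p = 0.0439, and 0.0949 with the block), with an overlap between the groups. *Ada* kept its call whichever sample was left out, whereas *2010107G12Rik*, *2010109I03Rik* and *Gm14085* each lost theirs when any of 6 samples was left out, *Nt5e* when any of 5 was, and *Clca4a* without mock sample 1, DT sample 2 or DT sample 3.

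The transcription factors of the tip cells did not pass the test in the bulk epithelium. *Klf4* stood at 2.29, 1.99, 2.36 and 1.63 in mock and 2.01, 1.25, 0.935 and 1.11 in DT samples (−0.75 ± 0.21, adjusted p = 0.190). *Fos* (−0.67, adjusted p = 0.277), *Jun* (−0.54), *Creb3l3* (−0.26), *Cdh1* (−0.19) and *Egfr* (−0.29) had negative differences, and 0 of these 5 passed. Nor did *Cldn4* (−1.54, adjusted p = 0.217), *Gprc5a* (−0.97), *Nsmf* (−1.18) and *Clec2d* (−0.14, adjusted p = 0.853) pass. The paper also counted mRNA by in situ hybridization in tip enterocytes alone. There it reported lower *Klf4*, *Fos*, *Cdh1* and *Egfr* 48 h after DT, and no change of *Creb3l3*. It states that expression of the former genes elsewhere along the villus or in the crypt could hide a change at the tip in bulk.

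**Figure D4:**
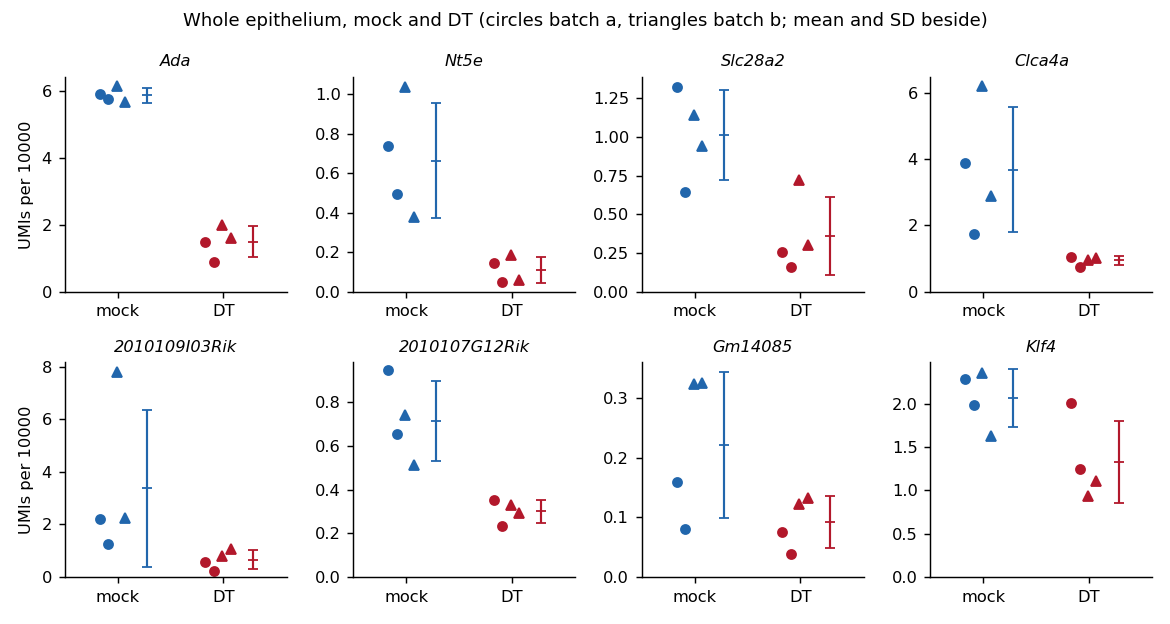
Levels of 8 genes, in UMIs per 10000, in the whole epithelium of 4 mock and 4 DT samples, with circles for batch a, triangles for batch b and the mean and SD beside the points. *Ada* lies between 5.68 and 6.16 in mock and between 0.875 and 2.00 in DT samples.

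Of the 30 genes lower after DT, 16 were tested in the single cells, and 12 of these were higher in tip cells (40.0% of the 30 and 3.77% of the 318). Over all genes tested in the single cells 6.05% were higher. Besides the 4 genes above they were *Mtmr11*, *Ptprr*, *Pmp22*, *Hspa12a*, *Itln1*, *Asap1*, *Tnks1bp1* and *Acot12*. Some of the 12 had enough UMIs for the test only through the tip cells. These were *Gm14085* (499 UMIs against 0), *2010109I03Rik* (869 against 3), *2010107G12Rik* (359 against 8), *Asap1* (80 against 7), *Tnks1bp1* (37 against 2), *Hspa12a* (33 against 2) and *Itln1* (28 against 5). The count of 12 among 16 is therefore a description. *Pmp22*, a tetraspan protein of cell membranes, had 417 UMIs in tip cells and 43 in zero cells (3.26, adjusted p = 2.43e-12) and a DT difference of −2.29 ± 0.37 (adjusted p = 0.0340, and 0.0624 with the block). It was named after its values were seen. With the replicate block 0 of these 12 genes were called (adjusted p = 0.0624 to 0.129). Tuft genes (*Dclk1*, *Trpm5*, *Rgs13*) and Paneth genes (*Mptx2*, *Defa5*) were also among the 30. With the replicate block 0 genes were higher and 3 lower, among them *Nt5e* and *Mptx2*, and 1551 genes had an unadjusted p under 0.05 with the batch term.

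The wider group of tip genes had mostly negative DT differences. Of the 318 higher genes 293 were tested in the epithelium, and 253 of them (86.3%) had a DT difference below 0, against 54.1% of all genes tested in the single cells. Their median was −0.39, beside 0.00 over all 8986 genes, and 109 were lower and 6 higher at an unadjusted p under 0.05. Of the 425 lower genes 251 were tested, 29 of them (11.6%) had a difference below 0 and the median was 0.53. Ribosomal protein genes lower in tip cells took part in this, with 82 tested, 0 below 0 and a median of 0.72. The genes of a library are not independent of each other, and no test was made of these shares.

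**Figure D5:**
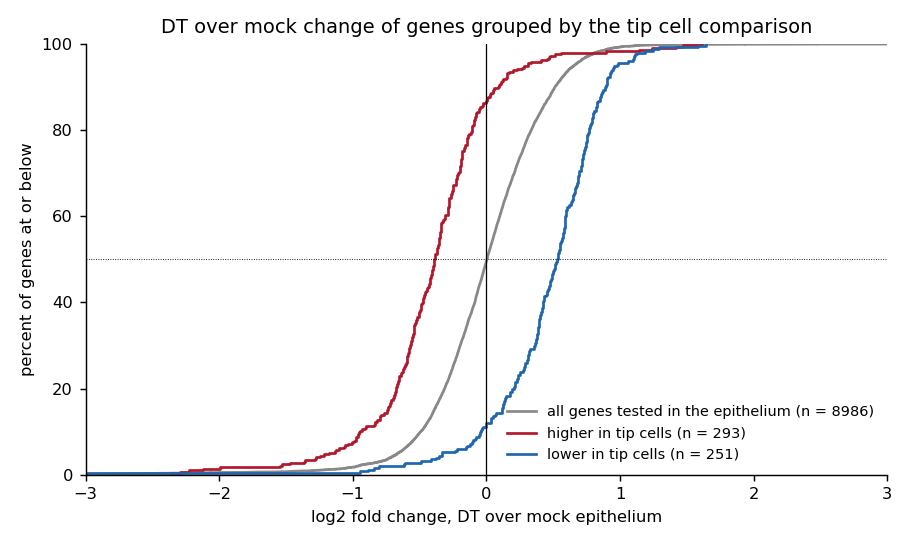
Cumulative share of genes by their log2 difference of DT over mock epithelium, for all 8986 genes, the 293 genes higher and the 251 genes lower in tip cells. The curve of tip genes lies to the left of all genes (median −0.39 against 0.00) and that of the genes lower in tip cells to the right (0.53).

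The LCM samples offered a position on the villus, through enterocyte RNA left in the dissected stroma of 5 mice. *Ada* stood at 799.9, 73.9, 32.5, 0 and 4.13 TPM (transcript abundance corrected for length) at the villus bottom of mice 1 to 5 and at 849, 234.5, 1428, 16.8 and 273 TPM at their villus tip. It was higher at the tip in 5 of 5 mice, with groups that overlapped widely (log2(TPM + 1) difference 3.41 ± 1.63 SE, limma adjusted p = 0.982). *Clca4a* stood at 110, 39.1, 6.52, 5.14 and 1.99 TPM against 588, 49.3, 132, 14.4 and 119, also higher in 5 of 5 mice (2.71 ± 1.10). *2010109I03Rik* differed by 1.84 ± 0.75 with 5 of 5 mice higher at the tip, *Slc28a2* by 1.70 ± 1.23 with 4 of 5, *Nt5e* by 0.59 ± 0.94 and *Klf4* by 0.20. In limma 0 of 11650 genes passed the adjustment (0%), also with the mouse as a block, while 465 and 830 had an unadjusted p under 0.05.

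The amount of enterocyte RNA was not controlled in these samples, and the crypt zone of mouse 1 held 3565 TPM of *Ada* against 1.68 and 87.2 in the other 2 crypt samples. Genes higher in tip cells had a median difference of 0.12 between villus tip and villus bottom with 59.1% above 0. Genes lower in tip cells had a median of −0.85 with 17.5% above 0, beside −0.33 with 35.7% above 0 over the genes tested between the cells and −0.01 over all genes tested in the LCM samples. In neither group did a gene pass the test.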

How the data were processed

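Single cells were sequenced by the authors from 3′ ends (MARS-seq), mapped with zUMIs to GRCm38 (Ensembl annotation) and deposited as UMI counts per gene and well; per the labels, reads were split with bcl2fastq 2.15.0.4. The deposited epithelium table holds UMI counts of bulk mcSCRB-seq libraries. LCM libraries (SMART-seq) were quantified by the authors with kallisto and deposited as TPM. A plate of 352 wells with no matching sample was not used.

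Members and gene lists were chosen with earlier results of these data known. Each tip cell was matched to the zero cell of the same mouse nearest in log2 total UMIs (at most 0.25 apart, 268 of 274 matched, 131 within the same gate). Sums per mouse and class were tested in R 4.3.3 with edgeR 4.0.16 (quasi-likelihood, TMM, mouse as block, Benjamini-Hochberg) for genes with at least 20 UMIs over all sums and a UMI in 2 or more mice. Both classes came from the same mice, which is the source of the pairing. Across genes, the deviations of the classes of a mouse correlated at 0.151, 0.0729, 0.00388 and 0.114. The mice are separate animals. The labels do not say so for the epithelium samples, but the paper's methods give 4 mice with DT and 4 with the vehicle.

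Epithelium samples were tested with edgeR and the batch given by the study (samples 1 and 2, samples 3 and 4), for genes above 1e-05 of UMIs in 2 or more samples. Same-numbered mock and DT samples deviated together (r = 0.639, 0.427, 0.676 and 0.599), so the number was also fitted as a block. The LCM sections of a zone were averaged within each mouse, and the means were tested with limma 3.58.1 on log2(TPM + 1) for genes with a zone mean of at least 5 TPM, and since fold changes are on that scale they understate the change of low genes.

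Levels are UMIs per 10000 of a library or sum. Intervals are exact at the 95% level and cover counting error only, the floor is 3 UMIs over a class, and reads shared by similar genes were checked as identical windows of 50 bases between annotated transcripts. DESeq2 1.42.0 was an alternative. The scripts were tested on simulated data. Named genes are the rule's genes, the study's tip genes, the 10 higher and 10 lower genes with the largest change in the same direction in every mouse, and in each list up to 4 called genes of smallest p and up to 2 others of most UMIs, besides genes named as members of the text's counts. A few genes are not reported here and were left out of the lists.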

Additional observations from a re-analysis of the deposited data

Results flagged for a closer look

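In 14 of the 163 groups of 4 or 5 values examined, the highest or lowest value stood apart from the rest of its group by Dixon's criterion, where chance gives about 1 in 20. Among tip cells these were *Klf4* in mouse A (11.4 UMIs per 10000, others 5.23 to 6.25), *Sis* in mouse E (18.4, others 1.99 to 4.23) and *Pmepa1* in mouse H (0, others 2.08 to 2.5). Among zero cells they were *Tkfc* in mouse G (5.39, others 3.62 to 3.86), *Plec* in mouse E (5.62, others 1.85 to 2.16) and *mt-Co1* in mouse H (60.2, others 9.83 to 16.2). Mouse E had 7 pairs of cells and mouse H 22.

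In the epithelium, *2010109I03Rik* was high in mock sample 3 (7.78, others 1.24 to 2.24) and *Egfr* low in DT sample 1 (0.0927, others 0.172 to 0.178). In the LCM samples mouse 1 stood apart for *Ada* at the villus bottom (799.9 TPM, others 0 to 73.9) and villus center (745 TPM, others 0 to 52.8), *Slc28a2* at the villus bottom (52.8 TPM, others 0.651 to 15.7), *Klf4* at the villus bottom (111 TPM, others 10.3 to 31.9) and *Clca4a* at the villus tip (588 TPM, others 14.4 to 132). *Nt5e* at the villus tip stood apart in mouse 5 (57.6 TPM, others 0.671 to 12).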

How the results depend on the processing

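Between tip and zero cells, DESeq2 called 237 genes lower, no filter on low counts 266, all zero cells without matching 695, and cells without crypt or secretory markers 210. Without the gates labelled as doublets 119 genes were higher and 158 lower. Total UMIs in place of TMM, a setting chosen after seeing the data, gave 199 and 658. Leaving out each mouse in turn gave 81 to 427 higher and 44 to 569 lower genes, with the lowest counts without mouse A. The other alternatives stayed within 1.5 times of the reported counts, including 293 higher and 425 lower genes with no replicate block and 258 and 316 without the CD45 gate, also chosen after seeing the data. After DT, DESeq2 called 45 higher and 114 lower genes, no filter 302 and 333, the replicate block 0 and 3, no batch term 0 and 1, and leaving out each sample 0 to 6 and 3 to 38. The share of tip cells was 9.88% after thinning.

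Of 71 called genes named in the single cells, 35 kept their call under every alternative in which they were tested and 36 lost it under at least 1. *Fcgbp* reversed to 0.26 with a tip threshold of 4 UMIs. All 6 genes called after DT lost the call somewhere. In the LCM samples, leaving out a mouse gave −0.55 to 0.75 for *Creb3l3*, −0.66 to 1.11 for *Klf4* and −0.029 to 0.93 for *Nt5e*, below 0 without mouse 5 in each, and *Klf4* was −0.06 without mouse 3. The causes were not tested. Without the mouse block *Cdh1*, *Enpep*, *Fbp2*, *Mcl1*, *Tkfc* and *mt-Co1* lost their calls. In the epithelium, *Nt5e* and *Mptx2* kept theirs with the replicate block and the other named genes lost them (*Dclk1* 0.0624, *Trpm5* 0.0888, *Rgs13* 0.0949 and *Defa5* 0.0949 as adjusted p). With 4 mice and 261 tip cells, genes under 20 UMIs could not be tested, *Egfr* among them.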
